A study of Mus musculus with 6 samples.

Results

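Subcutaneous white adipose tissue (scWAT) RNA-seq was examined for 32 genes listed under mitochondrial fatty acid oxidation, from the carnitine shuttle to the electron transfer flavoprotein. Of these, 6 act on branched-chain, lysine or ketone body intermediates, so counts over the 32 are not of fatty acid oxidation genes alone. The 32 genes were chosen by symbol from textbook knowledge of the pathway, with earlier results of these data known. All 32 were found among the 55401 genes of the count files. The 3 YT-FF libraries came from male mice of 8 weeks that carried floxed *Yap* and *Taz* alleles (Yap fl/fl, Taz fl/fl) without Cre, and GEO's labels call them WT. The 3 libraries labelled YT-AKO came from male mice of the same age with the same floxed alleles and Cre under control of *Adipoq*, a gene of mature adipocytes, so blood, vascular, nerve and stromal cells of the fat pad should keep both genes. Both groups were fed normal chow at room temperature. Whole-tissue RNA was sequenced, so more cells of a type and more RNA per cell cannot be told apart, and nothing in the labels ties a library to a litter or a day.

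In the matrix, beta-oxidation removes acetyl-CoA from a fatty acyl-CoA in repeated cycles of dehydrogenation, hydration, a second dehydrogenation and thiolysis. Long-chain acyl groups enter through the carnitine shuttle, in which carnitine palmitoyltransferase 1 on the outer membrane is inhibited by malonyl-CoA and carnitine palmitoyltransferase 2 on the inner membrane remakes the acyl-CoA. Electrons from the acyl-CoA dehydrogenases pass through the electron transfer flavoprotein to ubiquinone. White adipocytes mainly store lipid, whereas brown and beige adipocytes are rich in mitochondria and burn fatty acids to make heat.

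The count totals per library ranged from 17740987 to 21838493. Values below are CPM, the counts scaled to a common library size that was adjusted by the trimmed mean of M values (TMM), unless a sentence says otherwise. Of the targeted genes, *Yap1* fell (69.0, 57.0 and 66.6 CPM in YT-FF 1, 2 and 3 against 37.7, 29.0 and 31.2 in the libraries labelled YT-AKO 1, 2 and 3; log2 fold change -0.98 ± 0.167 SE). *Wwtr1*, which encodes TAZ, rose (77.4, 75.9 and 98.6 CPM against 175, 133 and 160; 0.89 ± 0.182), opposite to the direction of the label. The counts cover all exons of the gene, also any outside the deleted part, and all cells of the fat pad. They cannot decide whether the gene was deleted in adipocytes. For that reason the term "libraries labelled YT-AKO" is used for every direction given here. The TMM factor of YT-AKO 2 was 0.778, against 0.954 to 1.16 in the other 5 libraries. Adipocyte markers were present in every library, with summed levels of 12551 to 18276 CPM in YT-FF and 21360 to 35243 CPM in the libraries labelled YT-AKO. *Fabp4* made up much of this sum, at 4338, 4066 and 7188 CPM against 9145, 20200 and 10189 CPM. *Lipe*, *Pnpla2* and *Retn* were also higher without overlap, while *Adipoq*, *Plin1*, *Cidec* and *Lep* overlapped between the groups.

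In the libraries labelled YT-AKO most of the 32 genes stood above their YT-FF levels. By the quasi-likelihood test of edgeR, adjusted over 16807 genes after Benjamini and Hochberg, 22 of the 32 genes rose at an adjusted p under 0.05, where 12.6% of all genes tested were called higher, and 0 fell, where 9.01% were called lower. At an unadjusted p under 0.05, 27 passed, *Cpt1a* as the 1 that was lower, where 6853 of all 16807 genes passed in either direction. The median log2 fold change of the 32 genes was 1.003, whereas that of all genes tested was -0.02. The CPM values of the groups did not overlap for 26 genes that were higher and for 1 that was lower, where 25.7% and 25.8% of all genes did the same in each direction. At an adjusted p under 0.01, 0 of the 32 genes were called with a log2 fold change above 1, against 0.0892% of all genes. With a log2 fold change below -1 it was 0, against 0.0357%. The number above 1 depended on the fit. It stayed at 0 with limma-voom, upper-quartile scaling and library totals alone, but was 15 with DESeq2, 16 without a filter and 15 without YT-AKO 2. For those fits the share of all genes at this threshold was not computed. Without YT-FF 1 or without YT-FF 2 none of the 32 genes passed, and at most 2 genes of the whole table did. The median of the 32 genes was then 0.93 or 0.97. In each of these fits 24 of them were at an unadjusted p under 0.05. Of all genes, 4665 of 17183 were without YT-FF 1 and 4507 of 17140 without YT-FF 2.

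**Figure D1:**
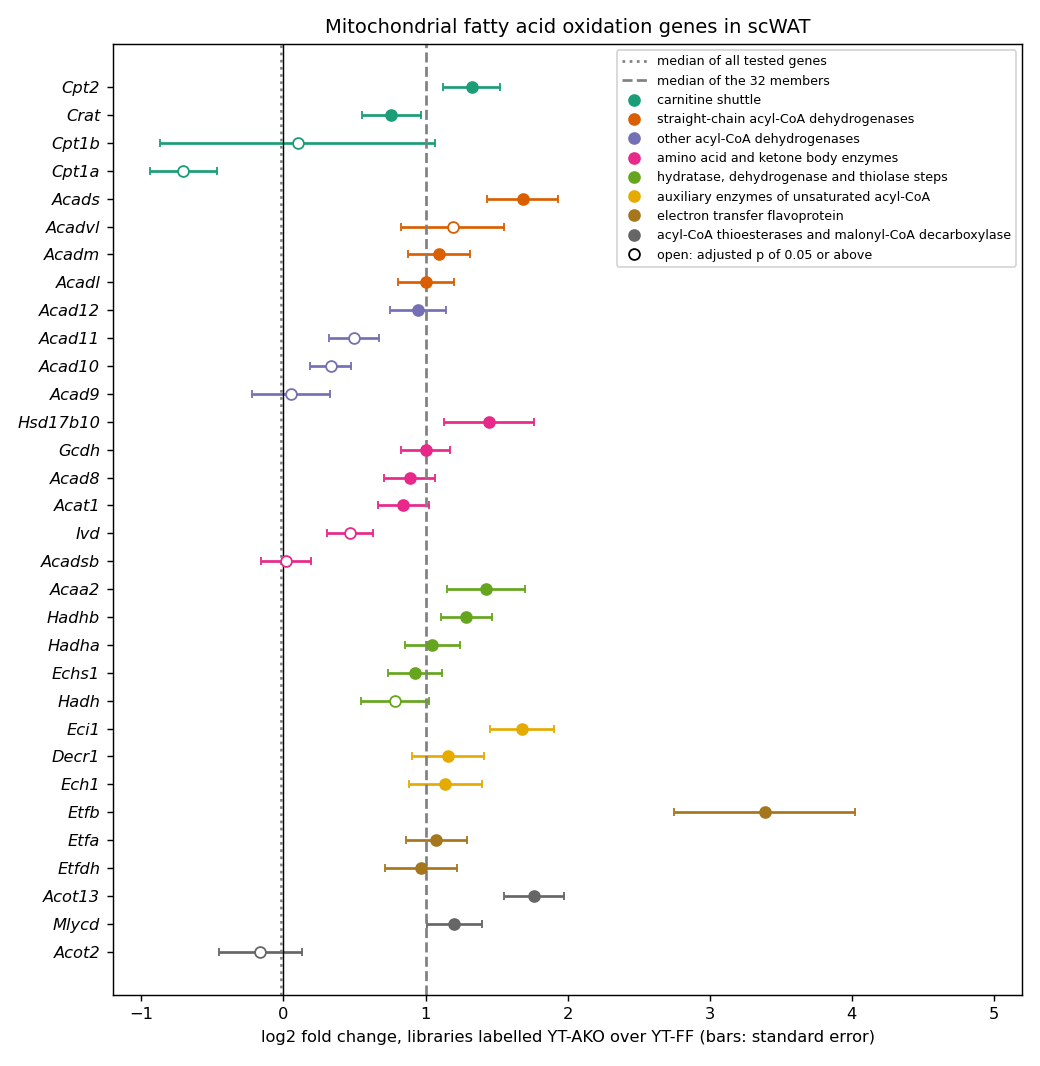
Log2 fold change of each of the 32 genes, libraries labelled YT-AKO over YT-FF (x axis), with the standard error as bars, ordered by role (colours) and by size within a role; filled points passed an adjusted p of 0.05 in edgeR. The dashed line marks the median of the 32 genes at 1.003 and the dotted line that of all genes tested at -0.02, and *Cpt1a* and *Acot2* are the genes with a mean change below 0.

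The groups were also apart when each library was summarized by its 32 genes. The median deviation of the genes from their own mean over 6 libraries was -0.66, -0.60 and -0.20 on the log2 scale in YT-FF 1, 2 and 3. In the libraries labelled YT-AKO 1, 2 and 3 it was 0.40, 0.56 and 0.61. YT-FF 3 thus lay nearest to the other group. The summed level of the genes was 4667, 4992 and 6325 CPM in YT-FF and 10069, 11346 and 11421 CPM in the libraries labelled YT-AKO. The heat map of the single libraries shows that YT-AKO 2 departed from YT-AKO 1 and 3 in both directions, with the highest levels of *Etfb*, *Hsd17b10* and *Acot13* and the lowest of *Cpt1a* and *Acad9*.

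**Figure D2:**
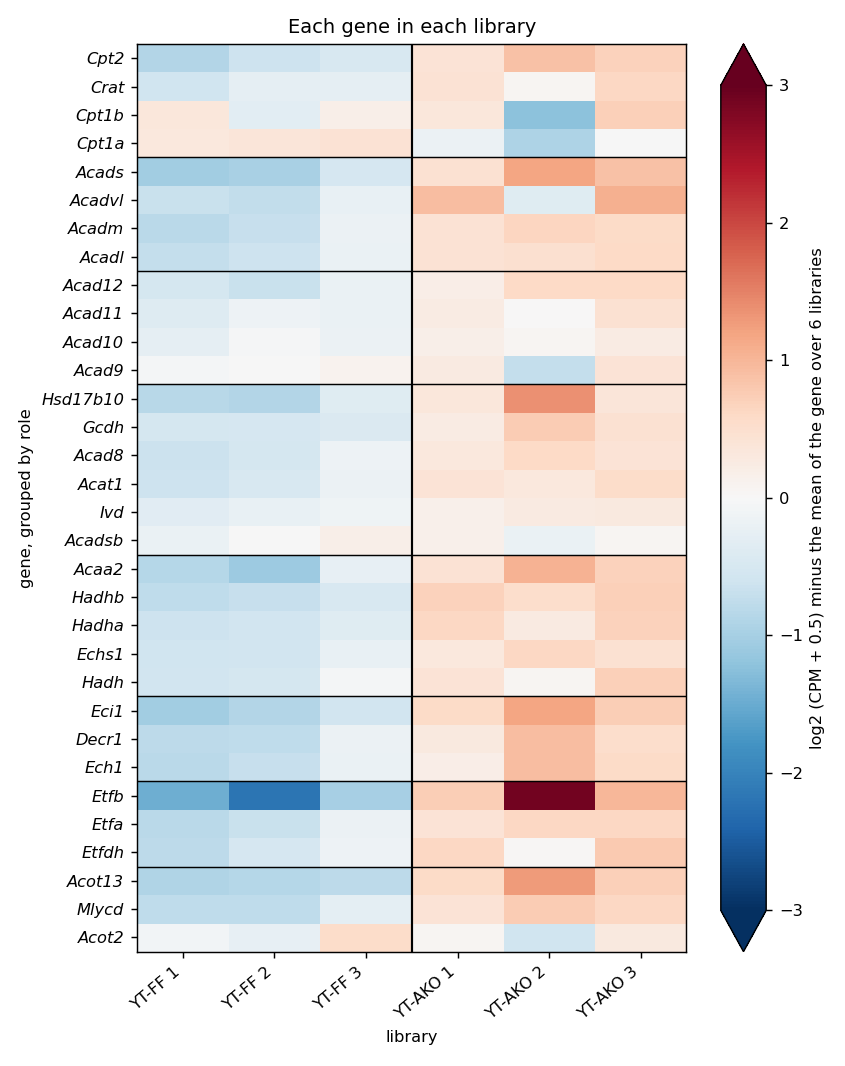
Log2 (CPM + 0.5) of each gene (rows, grouped by role) in each library (columns) as the deviation from that gene's mean over the 6 libraries, red above and blue below it. The YT-FF columns are mostly blue and the YT-AKO columns mostly red, except in the rows of *Cpt1a*, *Cpt1b*, *Acad9*, *Acadsb* and *Acot2*.

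Within the carnitine shuttle the enzymes did not move together. *Cpt2* (ENSMUSG00000028607.16, chr4:107903981-107923610, mm10), the inner membrane transferase, was at 149, 180 and 199 CPM in YT-FF 1, 2 and 3 and at 365, 508 and 447 CPM in the libraries labelled YT-AKO. Every YT-AKO value was above every YT-FF value, with means of 176 ± 24.8 and 440 ± 71.5 CPM (SD, n = 3) and a log2 fold change of 1.32 ± 0.200 (SE, adjusted p = 0.0171, edgeR). *Crat*, carnitine acetyltransferase, which moves acetyl groups between CoA and carnitine, also rose, from 336 ± 41.5 to 569 ± 109 CPM (SD, n = 3; log2 fold change 0.76 ± 0.208, adjusted p = 0.0401, edgeR). When the libraries were scaled by their totals alone, *Crat* no longer passed (0.45, adjusted p = 0.190, edgeR), and of the other genes called neither did *Acat1* and *Etfdh*.

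*Cpt1a* (ENSMUSG00000024900.5, chr19:3322334-3385733), the outer membrane isoform that predominates in liver, had 57.0, 59.7 and 62.6 CPM in YT-FF and 40.3, 24.1 and 45.4 CPM in the libraries labelled YT-AKO. It is the single gene of the 32 whose YT-AKO values all lay below the YT-FF values. The log2 fold change was -0.71 ± 0.236 and the adjusted p was 0.0648 in edgeR, above the threshold. The call depended on the setting, since *Cpt1a* was called lower with DESeq2 (adjusted p = 0.0346), with library totals alone (adjusted p = 0.0447, edgeR) and without YT-AKO 2 (-0.48, adjusted p = 0.0188, edgeR), but not after a correction for gene length (-0.43, adjusted p = 0.151, edgeR).

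*Cpt1b* (ENSMUSG00000078937.8, chr15:89416405-89425863), the isoform of muscle and brown fat, was near the limit of counting. Its counts were 23, 10 and 16 in YT-FF and 17, 0 and 24 in the libraries labelled YT-AKO, and a count of 0 allows up to 3. The groups overlapped, with a log2 fold change of 0.10 ± 0.967 (adjusted p = 0.945, edgeR). Another annotated gene on the same strand, *Gm44502*, covers 81.4% of the exon bases of *Cpt1b*, and fragments over both genes were left out of the deposited counts, so the level of *Cpt1b* is a low estimate. The ratio of *Cpt1b* to *Cpt1a* per length, with 0.5 added to the counts, did not differ in a set direction. The mean log2 difference was -0.30 (2-sided exact permutation p = 1, n = 3 against 3) and turned to 1.21 without YT-AKO 2 (exact permutation p = 0.2).

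**Figure D3:**
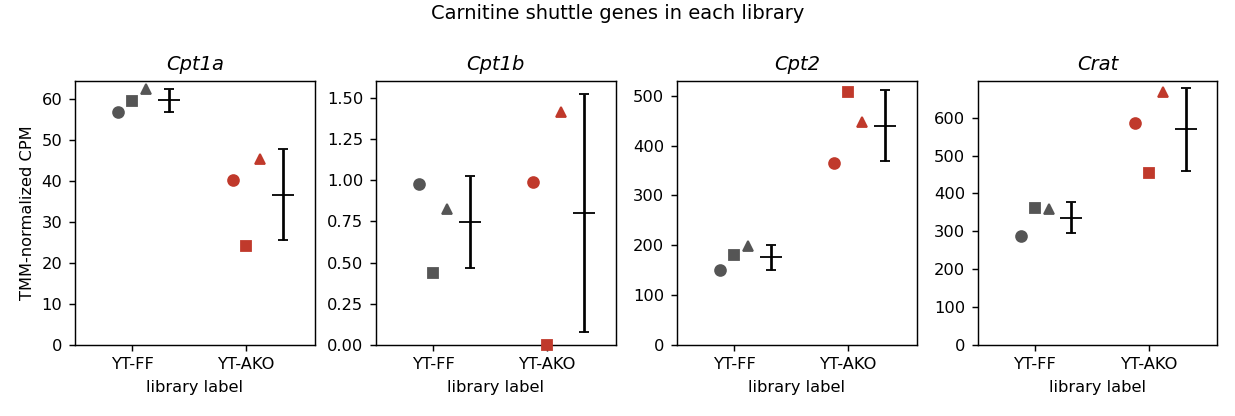
TMM-normalized CPM (y axes, each from 0) of *Cpt1a*, *Cpt1b*, *Cpt2* and *Crat* in YT-FF (grey) and the libraries labelled YT-AKO (red); the circle, square and triangle are replicates 1, 2 and 3 and the black marks are the mean ± SD. The groups do not overlap for *Cpt1a*, *Cpt2* and *Crat*, and overlap for *Cpt1b*.

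Beyond the transferases, the carnitine-acylcarnitine carrier gene *Slc25a20*, which is not among the 32, rose from 60.3, 76.2 and 104 CPM to 238, 166 and 271 CPM (log2 fold change 1.49 ± 0.265, adjusted p = 0.0185, edgeR). *Acsl1*, the main acyl-CoA synthetase of adipocytes, had a log2 fold change of 0.33 ± 0.315 and did not pass (adjusted p = 0.457, edgeR). Neither did *Acacb*, which makes the malonyl-CoA that inhibits CPT1 (0.30, adjusted p = 0.306, edgeR).

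Of the 4 dehydrogenases for straight-chain acyl-CoA, 3 rose. *Acads*, for short chains, changed most, from 126, 132 and 184 CPM in YT-FF to 358, 585 and 476 CPM (147 ± 31.7 to 473 ± 114, SD, n = 3; log2 fold change 1.68 ± 0.249, adjusted p = 0.0171, edgeR). *Acadm*, for medium chains, went from 319, 347 and 496 CPM to 763, 882 and 839 CPM (1.10 ± 0.220, adjusted p = 0.0213, edgeR). *Acadl*, for long chains, rose from 350 ± 68.9 to 702 ± 41.9 CPM (SD, n = 3; 1.004 ± 0.199, adjusted p = 0.0208, edgeR), though it did not pass with a term for gene length. In these 3 genes the groups did not overlap, and YT-FF 3 was the highest YT-FF library.

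*Acadvl*, for very long chains, was split by one library. It was at 116, 110 and 159 CPM in YT-FF, at 348 and 386 CPM in YT-AKO 1 and 3, but at 144 CPM in YT-AKO 2, within the YT-FF range. The test over all 6 libraries gave 1.19 ± 0.361 (adjusted p = 0.0511, edgeR), and without YT-AKO 2 it gave 1.52 (adjusted p = 0.00188, edgeR). *Dvl2* on the opposite strand covers 42.9% of the exon bases of *Acadvl*. The counting ignored strand, so fragments over both genes were lost from both.

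As a share of the 4 genes' summed TPM, which is a level per exon length scaled to the same total in each library, *Acads* took 16.9%, 16.7% and 16.9% in YT-FF and 19.3%, 29.3% and 22.3% in the libraries labelled YT-AKO. The share of *Acadl* was 45.4%, 45.9% and 44.5% against 40.9%, 38.9% and 39.7%. For both genes the groups did not overlap, with 3 libraries a side. *Acadm* held 22.8% to 26.4% in all 6 libraries, and the groups overlapped.

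Among the remaining acyl-CoA dehydrogenases of fatty acids 1 of 4 was called. Of *Acad9*, *Acad10*, *Acad11* and *Acad12*, *Acad12* passed (28.7 ± 4.94 to 55.4 ± 8.83 CPM, SD, n = 3; log2 fold change 0.95 ± 0.194, adjusted p = 0.0223, edgeR). *Acad10* and *Acad11* were at 0.33 and 0.50 (adjusted p = 0.128 and 0.0731, edgeR), with groups that did not overlap. *Acad9*, which is better known as an assembly factor of respiratory complex I, was at 40.3 ± 2.42 and 41.9 ± 15.4 CPM (SD, n = 3; 0.05, adjusted p = 0.897, edgeR). *Acad10* and *Acad12* lie side by side on chromosome 5 and each shares 17.3% of its 50-base words with other genes, mostly with each other, so their separate values are less certain.

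The hydration, dehydrogenation and thiolysis steps rose in 4 of 5 genes. *Hadha* (ENSMUSG00000025745.12, chr5:30118304-30155162) and *Hadhb* (ENSMUSG00000059447.13, chr5:30155248-30184593) encode the alpha and beta subunits of the trifunctional protein, which carries out the last 3 reactions on long chains. They lie head to head on opposite strands, so a single short stretch lies between the annotated exons of the pair. This stretch is printed because both genes, which moved together, are read outward from it, along with the stretches upstream of *Eci1* and *Acads*, since *Eci1*, *Hadhb* and *Acads* had the smallest adjusted p of the genes with a promoter window. That of *Cpt1a* was added after its opposite direction was seen, and it lies before RefSeq's start but inside the gene as GENCODE annotates it, between alternative first exons. All come from RefSeq's promoter windows (GRCm38.p6, the build called mm10), 5′ to 3′ on the strand of the named gene, limited to bases outside every exon of the deposited annotation. Capitals mark AGGTCA (a nuclear receptor half-site; TGACCT on the other strand) and GGAATG (the core bound by TEAD factors, the DNA-binding partners of YAP and TAZ; CATTCC on the other strand).
Hadhb and Hadha, chr5:30155163-30155247, plus strand: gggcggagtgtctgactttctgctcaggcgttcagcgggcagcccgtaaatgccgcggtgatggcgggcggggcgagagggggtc
Eci1, chr17:24426433-24426640, plus strand: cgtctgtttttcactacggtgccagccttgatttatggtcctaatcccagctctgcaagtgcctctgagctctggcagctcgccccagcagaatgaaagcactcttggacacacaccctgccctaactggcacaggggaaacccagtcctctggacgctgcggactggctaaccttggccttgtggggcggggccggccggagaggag
Acads, chr5:115119347-115119596, minus strand: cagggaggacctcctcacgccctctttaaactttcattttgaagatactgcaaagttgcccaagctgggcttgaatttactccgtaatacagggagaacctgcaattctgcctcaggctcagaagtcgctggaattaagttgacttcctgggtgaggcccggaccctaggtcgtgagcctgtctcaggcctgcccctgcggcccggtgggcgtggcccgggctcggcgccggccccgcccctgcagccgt
Cpt1a, chr19:3323051-3323284, plus strand: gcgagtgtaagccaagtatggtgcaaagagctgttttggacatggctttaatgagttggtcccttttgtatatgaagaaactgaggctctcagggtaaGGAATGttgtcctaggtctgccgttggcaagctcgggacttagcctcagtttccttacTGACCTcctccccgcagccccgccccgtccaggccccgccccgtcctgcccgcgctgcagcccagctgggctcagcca

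Of these stretches only that of *Cpt1a* held either motif, with 1 AGGTCA and 1 GGAATG. RefSeq windows of 300 bases were found for 25 of the 32 genes. On both strands, AGGTCA was present in 4 of them (16% against 16.3% of 32851 windows of all genes), in *Acadm*, *Acadvl*, *Cpt1a* and *Echs1*. GGAATG was present in 3 (12% against 14.7%), in *Cpt1a*, *Etfb* and *Gcdh*. The longer TCAAGGTCA, bound by estrogen-related receptors, and the PPAR-RXR direct repeat, DR1, both of which contain AGGTCA, were in 0 of the 25 windows and in 0.423% and 0.0396% of all. A match is only a run of letters in this window, and the shares of the genes were near those of all windows.

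*Hadha* was at 310, 323 and 371 CPM in YT-FF and at 732, 577 and 768 CPM in the libraries labelled YT-AKO (335 ± 31.96 to 692 ± 102, SD, n = 3; log2 fold change 1.05 ± 0.191, adjusted p = 0.0186, edgeR). *Hadhb* was at 337, 350 and 407 CPM against 913, 815 and 940 CPM (364 ± 37.1 to 889 ± 65.8, SD, n = 3; 1.29 ± 0.178, adjusted p = 0.0166, edgeR). The subunits rose together, *Hadhb* by more. After a correction for gene length the log2 fold changes lay closer together, at 1.39 for *Hadha* and 1.51 for *Hadhb*. Per length, *Hadha* over *Hadhb* was 0.695, 0.698 and 0.689 in YT-FF and 0.606, 0.535 and 0.617 in the libraries labelled YT-AKO, a mean log2 difference of -0.25 with groups that did not overlap (2-sided exact permutation p = 0.1, n = 3 against 3, the smallest this design allows). A share of 19.7% of the 50-base words of *Hadhb* occurs in other genes, and 18.1% in the processed pseudogene *Gm13910*.

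*Acaa2*, the thiolase for medium chains (chromosome 18), rose from 198, 170 and 305 CPM to 488, 739 and 580 CPM (log2 fold change 1.42 ± 0.275, adjusted p = 0.0203, edgeR). *Echs1*, the short-chain hydratase, rose from 292 ± 44.3 to 555 ± 60.6 CPM (SD, n = 3; 0.93, adjusted p = 0.0221, edgeR). *Hadh*, the short-chain 3-hydroxyacyl-CoA dehydrogenase, had groups that did not overlap (290, 302 and 417 CPM against 577, 449 and 711 CPM) but missed the threshold (0.78 ± 0.240, adjusted p = 0.0525, edgeR), and it passed without YT-AKO 2 (0.93, adjusted p = 0.00833, edgeR).

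All 3 auxiliary enzymes, which shift or reduce double bonds so that unsaturated chains can enter the cycle, rose. *Eci1*, enoyl-CoA delta isomerase 1 (ENSMUSG00000024132.6, chr17:24426641-24439348), was at 105, 117 and 143 CPM in YT-FF and at 321, 491 and 358 CPM in the libraries labelled YT-AKO (122 ± 19.8 to 390 ± 89.5, SD, n = 3; log2 fold change 1.68 ± 0.225, adjusted p = 0.0165, edgeR). *Decr1*, 2,4-dienoyl-CoA reductase, went from 156, 159 and 239 CPM to 330, 514 and 394 CPM (1.16 ± 0.250, adjusted p = 0.0243, edgeR). *Ech1*, a dienoyl-CoA isomerase, went from 243, 263 and 374 CPM to 492, 807 and 639 CPM (1.14 ± 0.258, adjusted p = 0.0263, edgeR). In each of the 3, YT-AKO 2 was the highest library and YT-FF 3 the highest of its group.

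The electron transfer flavoprotein and its oxidoreductase pass electrons from the acyl-CoA dehydrogenases to ubiquinone, and their 3 genes rose by different amounts. *Etfa*, the alpha subunit (chr9:55454508-55512243), went from 201, 219 and 311 CPM to 466, 538 and 535 CPM (log2 fold change 1.08 ± 0.214, adjusted p = 0.0211, edgeR). *Etfdh*, the ubiquinone oxidoreductase (chr3:79603788-79629500), went from 84.9, 103 and 133 CPM to 225, 150 and 253 CPM (0.97 ± 0.252, adjusted p = 0.0356, edgeR). The values of *Etfdh* in YT-AKO 2 and YT-FF 3 were close, though the groups did not overlap, and *Etfdh* did not pass with library totals alone (0.68, adjusted p = 0.112, edgeR).

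*Etfb*, the beta subunit (ENSMUSG00000004610.4, chr7:43444083-43457800), had the largest change of the 32 genes. It was at 19.2, 11.5 and 26.7 CPM in YT-FF and at 89.8, 403 and 108 CPM in the libraries labelled YT-AKO, with a log2 fold change of 3.39 ± 0.637 (adjusted p = 0.0199, edgeR). YT-AKO 2 stood far above the others, and without it the change was 2.37 (adjusted p = 0.00203, edgeR). Other annotated genes cover 58.2% of the 1164 exon bases of *Etfb*, mostly *Gm45233* on the same strand with 53.0%, so its counts come from the rest of the gene and its level is a low estimate. Per length, *Etfa* over *Etfb* was 6.61, 12.1 and 7.37 in YT-FF and 3.29, 0.847 and 3.14 in the libraries labelled YT-AKO, a mean log2 difference of -2.03 (2-sided exact permutation p = 0.1, the smallest possible).

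Of the thioesterases and malonyl-CoA decarboxylase, 2 of 3 rose. *Acot13*, a thioesterase that is associated with mitochondria and splits long-chain acyl-CoA (chr13:24817948-24831540), was tight in YT-FF at 20.6, 21.3 and 22.6 CPM and reached 58.5, 95.3 and 65.1 CPM in the libraries labelled YT-AKO (log2 fold change 1.76 ± 0.212, adjusted p = 0.0146, edgeR). *Mlycd*, which destroys malonyl-CoA and so lifts the inhibition of CPT1 (chr8:119394878-119411102), went from 43.8, 44.2 and 61.2 CPM to 98.9, 128 and 116 CPM (1.202 ± 0.194, adjusted p = 0.0177, edgeR). *Acot2*, the matrix thioesterase (chr12:83987861-83993873), overlapped between the groups, with 24.7, 21.9 and 38.5 CPM against 27.0, 17.1 and 31.98 CPM (-0.16 ± 0.295, adjusted p = 0.702, edgeR).

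Its close relative *Acot1*, a cytosolic thioesterase that is not among the 32, rose from 0.298, 1.97 and 1.29 CPM to 7.31, 5.30 and 6.73 CPM (log2 fold change 2.44 ± 0.575, adjusted p = 0.0283, edgeR). *Acot2* shares 27.7% of its 50-base words with other genes, most of them with *Acot1*, and fragments that map to both were not counted. The split between these paralogs is therefore uncertain.

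The enzymes of the list that act on branched-chain, lysine or ketone body intermediates rose in 4 of 6 genes. *Hsd17b10*, a dehydrogenase of isoleucine breakdown that is also a subunit of mitochondrial RNase P (chrX:152001845-152004442), was at 55.1, 53.4 and 76.6 CPM in YT-FF and at 124, 255 and 126 CPM in the libraries labelled YT-AKO (log2 fold change 1.45 ± 0.317, adjusted p = 0.0249, edgeR), and at 1.02 without YT-AKO 2. *Gcdh*, glutaryl-CoA dehydrogenase of lysine breakdown, rose from 37.4 ± 1.41 to 74.8 ± 13.6 CPM (SD, n = 3; 1.002, adjusted p = 0.0181, edgeR). *Acad8*, of valine breakdown, and *Acat1*, the acetoacetyl-CoA thiolase, rose by 0.89 and 0.84 (adjusted p = 0.0218 and 0.0243, edgeR), but *Acat1* did not pass with library totals alone (0.53, adjusted p = 0.0827, edgeR).

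*Ivd*, isovaleryl-CoA dehydrogenase of leucine breakdown, did not overlap between the groups (289 to 334 CPM against 407 to 446 CPM) and missed the threshold (0.47 ± 0.160, adjusted p = 0.0687, edgeR). *Acadsb*, of isoleucine breakdown, overlapped, at 194 ± 24.95 CPM in YT-FF and 196 ± 23.5 CPM in the libraries labelled YT-AKO (SD, n = 3; 0.02 ± 0.175, adjusted p = 0.952, edgeR).

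Shorter genes had larger changes. Over the 32 genes the Spearman correlation of the log2 fold change with the summed exon length was -0.637, and over all 16807 genes tested it was -0.376, given as descriptions since genes share their libraries. The exon lengths of the 32 genes ran from 744 to 9798 bases with a median of 3818.5, close to the median of 3888 over all genes tested. When a smooth length term was fitted for each library, 25 of the 32 genes rose and 0 fell by edgeR, where 10% and 4.76% of all genes did, with a median of 0.95. *Etfb* was then at 2.83 (adjusted p = 0.0206, edgeR). *Acad10*, *Acad11*, *Ivd* and *Hadh* passed, *Hadh* at 0.88 (adjusted p = 0.0393, edgeR), while *Acadl* no longer did (0.68, adjusted p = 0.0513, edgeR).

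**Figure D4:**
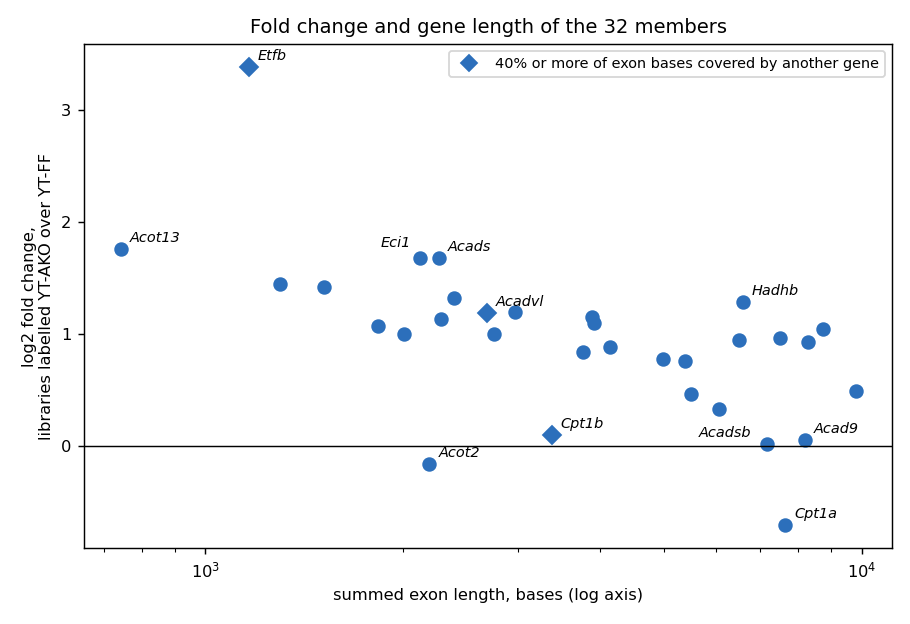
Log2 fold change of each gene, libraries labelled YT-AKO over YT-FF (y axis), against its summed exon length in bases (log x axis); diamonds are the genes with 40% or more of their exon bases under another gene. The short *Etfb* and *Acot13* lie highest and the long *Cpt1a*, *Acadsb* and *Acad9* lie low, with a Spearman correlation of -0.637.

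Levels of different genes were compared as TPM. In YT-FF the highest were *Acadl* (660.5 ± 100.5), *Acaa2* (558 ± 150), *Etfa* (501 ± 98.8), *Ech1* (485 ± 94.7) and *Acadm* (374 ± 74.7, SD, n = 3). Neighbours in this order lay within their spread. In the libraries labelled YT-AKO the same 5 genes led, with *Acaa2* (932 ± 97.5) and *Acadl* (850 ± 220) in exchanged places, and they held 41.4% to 45.6% of the TPM of the 32 genes in every library. *Cpt1b* was lowest in both groups. *Cpt1a* went from place 28 (29.7 ± 1.09 TPM) to place 31 (12.2 ± 5.77 TPM), and *Etfb* from place 22 to place 9.

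On this scale the separation was smaller. The summed TPM of the 32 genes was 5270, 5679 and 6934 in YT-FF and 8733, 7139 and 9822 in the libraries labelled YT-AKO, with YT-AKO 2 closest to YT-FF. In TPM, 11 of the 32 genes were higher without overlap, 3 were lower (*Cpt1a*, *Acad9* and *Acadsb*) and 18 overlapped. The share of all genes without overlap in TPM was not computed, so these counts cannot be set against a background. A limma fit on log2 (TPM + 1) called 7 higher and 1 lower, *Cpt1a* (-1.34, adjusted p = 0.0317), where 3.30% of all genes were called higher and 30.9% lower. The median of the 32 genes in that fit was 0.32 and that of all genes was -0.56, so the 32 genes lay 0.88 above all genes, against 1.02 for TMM-scaled counts.

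**Figure D5:**
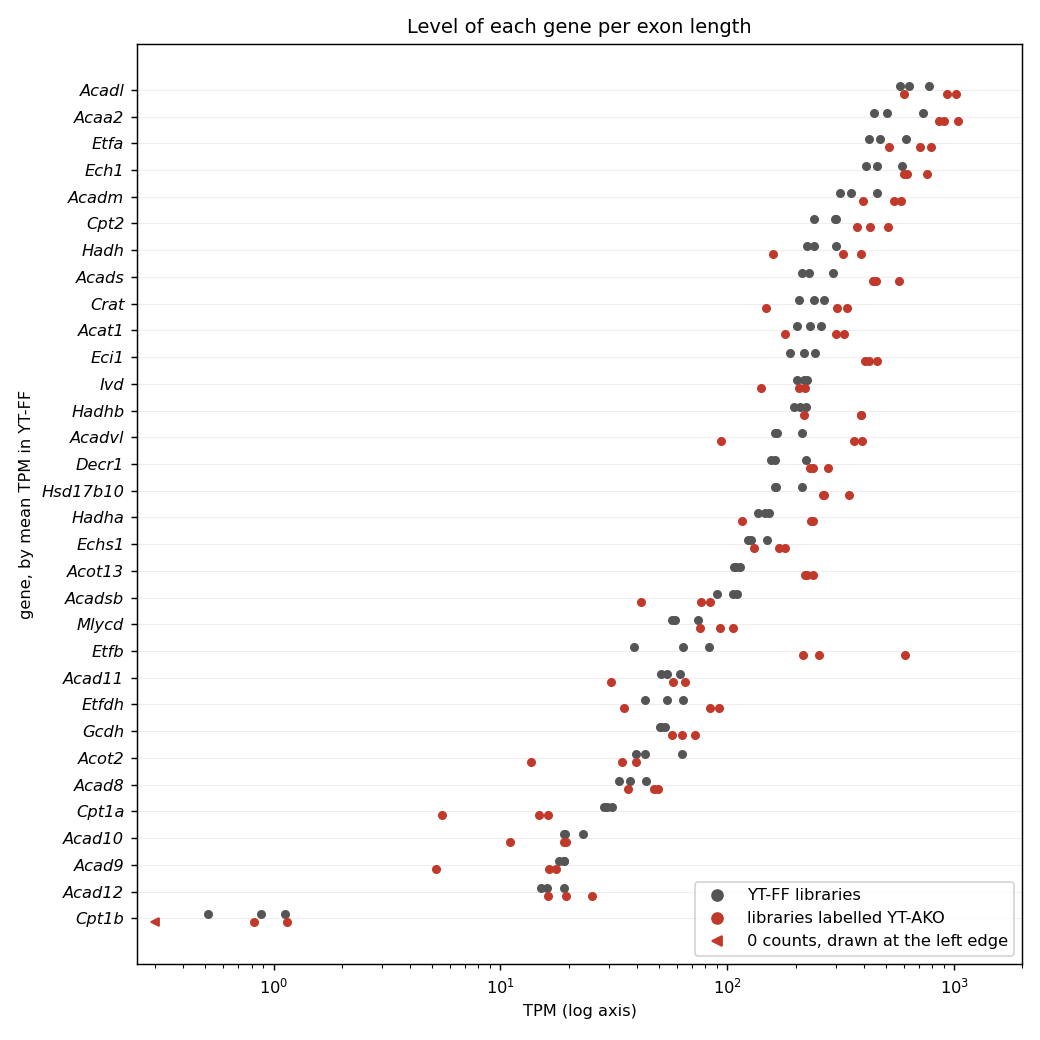
TPM (log x axis) of each gene in each library, grey for YT-FF and red for the libraries labelled YT-AKO, ordered by the YT-FF mean; the arrowhead marks the library with 0 counts of *Cpt1b*. *Acads*, *Eci1*, *Acot13* and *Etfb* have red points to the right of all grey ones, and *Cpt1a* to the left.

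Genes next to the 32 in the pathway changed mostly upward, with 34 at a log2 fold change above 0 and 12 below. Of 48 further genes, 46 could be tested, 15 rose, 1 fell and the median log2 fold change was 0.32, beside the 12.6% of all genes called higher and the 9.01% called lower. Acyl-CoA supply and carnitine transport had 2 of 9 called higher (*Slc25a20* and *Acsl5*), a list of other acyl-CoA enzymes, mostly mitochondrial, 6 of 14 with the cytosolic *Acot1* among them, peroxisomal beta-oxidation 4 of 10, and regulators of fatty acid oxidation 2 of 9 (*Esrra* and *Klf15*). Those with the largest change, besides *Acot1* and *Slc25a20*, were *Acaa1b*, a peroxisomal thiolase (15.8, 14.6 and 40.2 CPM against 110, 146 and 127 CPM; 2.44 ± 0.400, adjusted p = 0.0177, edgeR), and *Mcee*, methylmalonyl-CoA epimerase of propionyl-CoA breakdown (15.4, 13.3 and 21.2 CPM against 35.5, 59.4 and 40.6 CPM; 1.44 ± 0.260, adjusted p = 0.0185, edgeR). *Acaa1b* shares 30.5% of its 50-base words with *Acaa1a*.

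Some markers of cell types also changed, where 12.6% of all genes tested were called higher and 9.01% lower. Of 8 markers of brown and beige thermogenic adipocytes 7 rose, and their summed level was 175 to 264 CPM in YT-FF and 1724, 3662 and 1876 CPM in the libraries labelled YT-AKO 1, 2 and 3. Of 8 general adipocyte markers 3 rose, and of 7 B cell markers 3 fell, from summed levels of 1145 to 1364 CPM to 699 to 1069 CPM. Of 5 endothelial markers 4 were lower without overlap, as were 25.8% of all genes, and *Kdr* was called (-0.78, adjusted p = 0.0358, edgeR). The remaining endothelial marker, *Emcn*, had a change above 0 and overlapped (0.63, adjusted p = 0.136, edgeR). Of 7 T cell markers *Cd4* fell (-0.89, adjusted p = 0.0253, edgeR), and of 6 fibroblast markers *Pi16* rose (0.75, adjusted p = 0.0275, edgeR). None of the macrophage, Schwann cell or epithelial markers tested was called. Of 5 markers of the classical brown depot 0 of 4 tested were called in either direction, and *Zic1* had 0 counts in all 6 libraries. Skeletal muscle, another tissue rich in these enzymes, gave summed marker levels of 563, 148 and 205 CPM in YT-FF and 4042, 543 and 215 CPM in the libraries labelled YT-AKO, with 1 of 10 markers tested called. The muscle sum was highest in YT-AKO 1, and those of YT-AKO 2 and 3 lay within the YT-FF range. The part of thermogenic, adipocyte, immune, endothelial, fibroblast and muscle RNA in the change of the 32 genes was not tested.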

How the data were processed

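Total RNA of scWAT was sequenced from paired ends in 3 YT-FF libraries and 3 labelled YT-AKO, with a kit that does not mark strand. The authors used HISAT2 on mm10 and then featureCounts 2.0.1 with the exons of GENCODE vM25. They deposited unnormalized counts, in whole fragments per gene. Fragments with several alignments or over several genes were left out, which lowers overlapping genes and paralogs. The summed exon length in the same files, per the file headers, was used for TPM.

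Genes were kept by edgeR's expression filter (minimum count 10, minimum total 15), leaving 16807 of 55401, and YT-AKO was compared with YT-FF by TMM scaling and the quasi-likelihood test of edgeR 4.0.16 in R 4.3.3, with Benjamini-Hochberg adjustment over all of them and a call at 0.05. Ratios were tested by exact permutation of 3 against 3 libraries, which cannot give a p under 0.1, and 0.5 was added to the counts for the *Cpt1b* ratio because 1 library had 0. Gene symbols came from a table that matched 55141 of the gene IDs. Shared 50-base words were counted over GENCODE vM21 transcripts. DESeq2 1.42.0, limma 3.58.1, other scalings and filters, a replicate block, a length term and leaving out each library were tried. The script was tested on simulated counts. The 32 genes and all lists were chosen with earlier results of these data known. Values in every library and tests were given for the 12 called genes with the largest change and for the transferases, trifunctional protein and flavoprotein. Genes with a mean change below 0 were named, and the others were given by means or tests. Of the other pathway genes, *Slc25a20*, *Acsl1*, *Acacb*, *Acot1* and the 4 called with the largest change were named. The values of 1 other pathway gene are not reported here. The methods give 3 male mice per group, so p-values measure the spread between mice.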

Additional observations from a re-analysis of the deposited data

How the results depend on the processing

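The share of all genes called higher in the same fit is given in brackets. With DESeq2 and without a filter the shares, also those called lower, are of 30027 genes, against 16807 as reported. They are therefore not on the same footing. As numbers, 2847 genes were called higher with DESeq2 and 2592 without a filter, against 2122 as reported. The 22 genes called higher (12.6%) became 25 with DESeq2 (9.48%), 23 with limma-voom (11.8%) and 22 with upper-quartile scaling (11.7%). The number was 19 with library totals alone (6.77%) and 24 without a filter (8.63%). It was 24 with at least 10 counts in every library (14.8%) and 25 with the length term (10%). With 1 library left out the number ran from 0 (without YT-FF 1 or YT-FF 2) to 27 (without YT-AKO 2), and the number called lower from 0 to 1. Of all genes, 0 were called higher without YT-FF 1 or YT-FF 2. Without YT-AKO 2, 16.9% were called higher and 14% lower. On log2 (TPM + 1) the number called higher was 7 (3.30%). The number called lower was 0 as reported and 1, always *Cpt1a*, with DESeq2, with library totals alone, without a filter and on log2 (TPM + 1). Of all genes, 7.41%, 16.8%, 5.86% and 30.9% were called lower in these fits. The median of the 32 genes was 0.68 with library totals alone and 0.32 on log2 (TPM + 1), where the medians of all genes were -0.34 and -0.56. Chosen after seeing the data were the TPM fit, the length term without YT-AKO 2 and a restriction to 29 genes with under 40% of their exon bases covered. The length term without YT-AKO 2 called 28 higher, where 14.5% of all genes were. Of the 29 genes 21 were called higher, in the fit where 12.6% of all genes were.

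The labels number the libraries of each group 1 to 3, which does not pair them. The correlations of same-numbered libraries' deviations were 0.139, -0.134 and -0.0912, and 1 of the 3 YT-FF libraries correlated best with its own number. With the replicate number as a block 0 of the 32 genes were called (median 1.003), where 0.143% of all genes were called higher and 0.0535% lower. At an unadjusted p under 0.05 were 25 of the 32 genes and 5806 of all 16807. With the block and the length term 3 of the 32 were called, all higher, where 0.333% of all genes were called higher and 0.131% lower.

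Genes near 0 changed sign. *Cpt1b* was at -1.05 with limma-voom, -0.15 with library totals alone, -0.38 with the replicate block, -0.46 with the block and the length term, -0.21 on log2 (TPM + 1) and -0.59 to 0.68 with 1 library left out. *Acad9* was at -0.022 with limma-voom, -0.0185 with the replicate block, -0.23 with library totals, -0.64 on log2 (TPM + 1) and -0.15 to 0.33 with 1 library left out. *Acadsb* was at -0.0255 with upper-quartile scaling, -0.29 with library totals, -0.0136 with at least 10 counts in every library, -0.65 on log2 (TPM + 1) and -0.0758 to 0.12 with 1 library left out. *Acot2* ran from -0.36 to 0.12 with 1 library left out. On log2 (TPM + 1) *Acad10* was at -0.33, *Acad11* at -0.19 and *Ivd* at -0.21. The log2 difference of the *Cpt1b* to *Cpt1a* ratio ran from -1.14 to 1.21 with 1 library left out. The cause was not tested for any of these. *Cpt1b* had at most 24 counts in a library, and 81.4% of its exon bases lie under *Gm44502*, where fragments were left out.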
